A study of Mus musculus with 2 samples.

Results

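The genes described are 7 that serve the metabolic work of the mature liver: the gluconeogenic enzymes Pck1, G6pc and Fbp1, the amino acid enzymes Tat, Tdo2 and Hpd, and Ppargc1a, a coactivator of several of them. They were chosen by name, as genes known to be switched on late in liver development, and are 7 of the 21938 protein-coding genes in the annotation. Each gene was taken as its body with 50 kb added to either side, called its locus. The assay was DNase-seq: DNase I cuts DNA where chromatin is open, and sequencing the ends of the fragments gives a density of cuts along the genome. The tissue was liver of mouse embryos of the strain B6NCrl at embryonic day 11.5, pooled over males and females. Its 2 libraries, technical replicate 7 and technical replicate 1, came from a single biosample, so there is no other stage, no treatment and no test between groups, and every value describes that biosample. The labels name no transgene, mutation or cell sorting, and in whole tissue a site open in fewer cells and a site cut less in every cell cannot be told apart.

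Gluconeogenesis makes glucose from lactate, glycerol and amino acids, and in the liver it starts around birth, when the supply of glucose across the placenta ends. Glucagon through cAMP and glucocorticoids raise the transcription of its enzymes in the adult, with CREB, C/EBP factors, FOXO1, HNF4A, the glucocorticoid receptor and the coactivator encoded by Ppargc1a among the known regulators. Tat, Tdo2 and Hpd break down tyrosine and tryptophan in hepatocytes, and Tat is a classical glucocorticoid target with known enhancers upstream of its start. At embryonic day 11.5 the liver holds, among other cells, hepatoblasts, the shared precursors of hepatocytes and bile duct cells, and blood-forming cells that have moved in.

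The starts of the 6 enzyme genes were closed in the peak lists of both libraries, while every one of these genes had a distal peak in its locus in technical replicate 7. A start was called open where a deposited peak overlapped 1 kb to either side of an annotated start, and a peak was called distal where it touched no such window of any gene. Of the 7 genes 1, Ppargc1a, had an open start in technical replicate 7, where 65.3% of all protein-coding genes had one. The count was also 1 of 7 in technical replicate 1, against 59.9% of all genes, and 1 of 7 in both libraries together, against 59.3%. All 7 loci held at least 1 distal peak in technical replicate 7, where 83.7% of all genes did. In technical replicate 1 it was 4 of 7, against 59.3% of all genes, and for peaks shared by both libraries 5 of 7, against 59.2%. A distal peak beside a closed start was found for 6 genes in technical replicate 7, where 21.1% of all genes had this arrangement. It was found for 4 genes, Pck1, G6pc, Fbp1 and Hpd, in technical replicate 1, against 16.4% of all genes, and for the same 4 in shared peaks, against 16.8%. Since a closed start is one of its conditions, the last share moves with the first. Among the 7603 genes with a closed start in technical replicate 7, 61.0% had a distal peak in their locus, which places the 6 of 6 enzyme genes above the common case in that library. In technical replicate 1 the share was 40.8% of 8807 genes with a closed start, and 4 of the 6 enzyme genes had one. Without a second stage the data hold no order in time, so which of these sites opened ahead of a start was not measured.

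**Figure D1:**
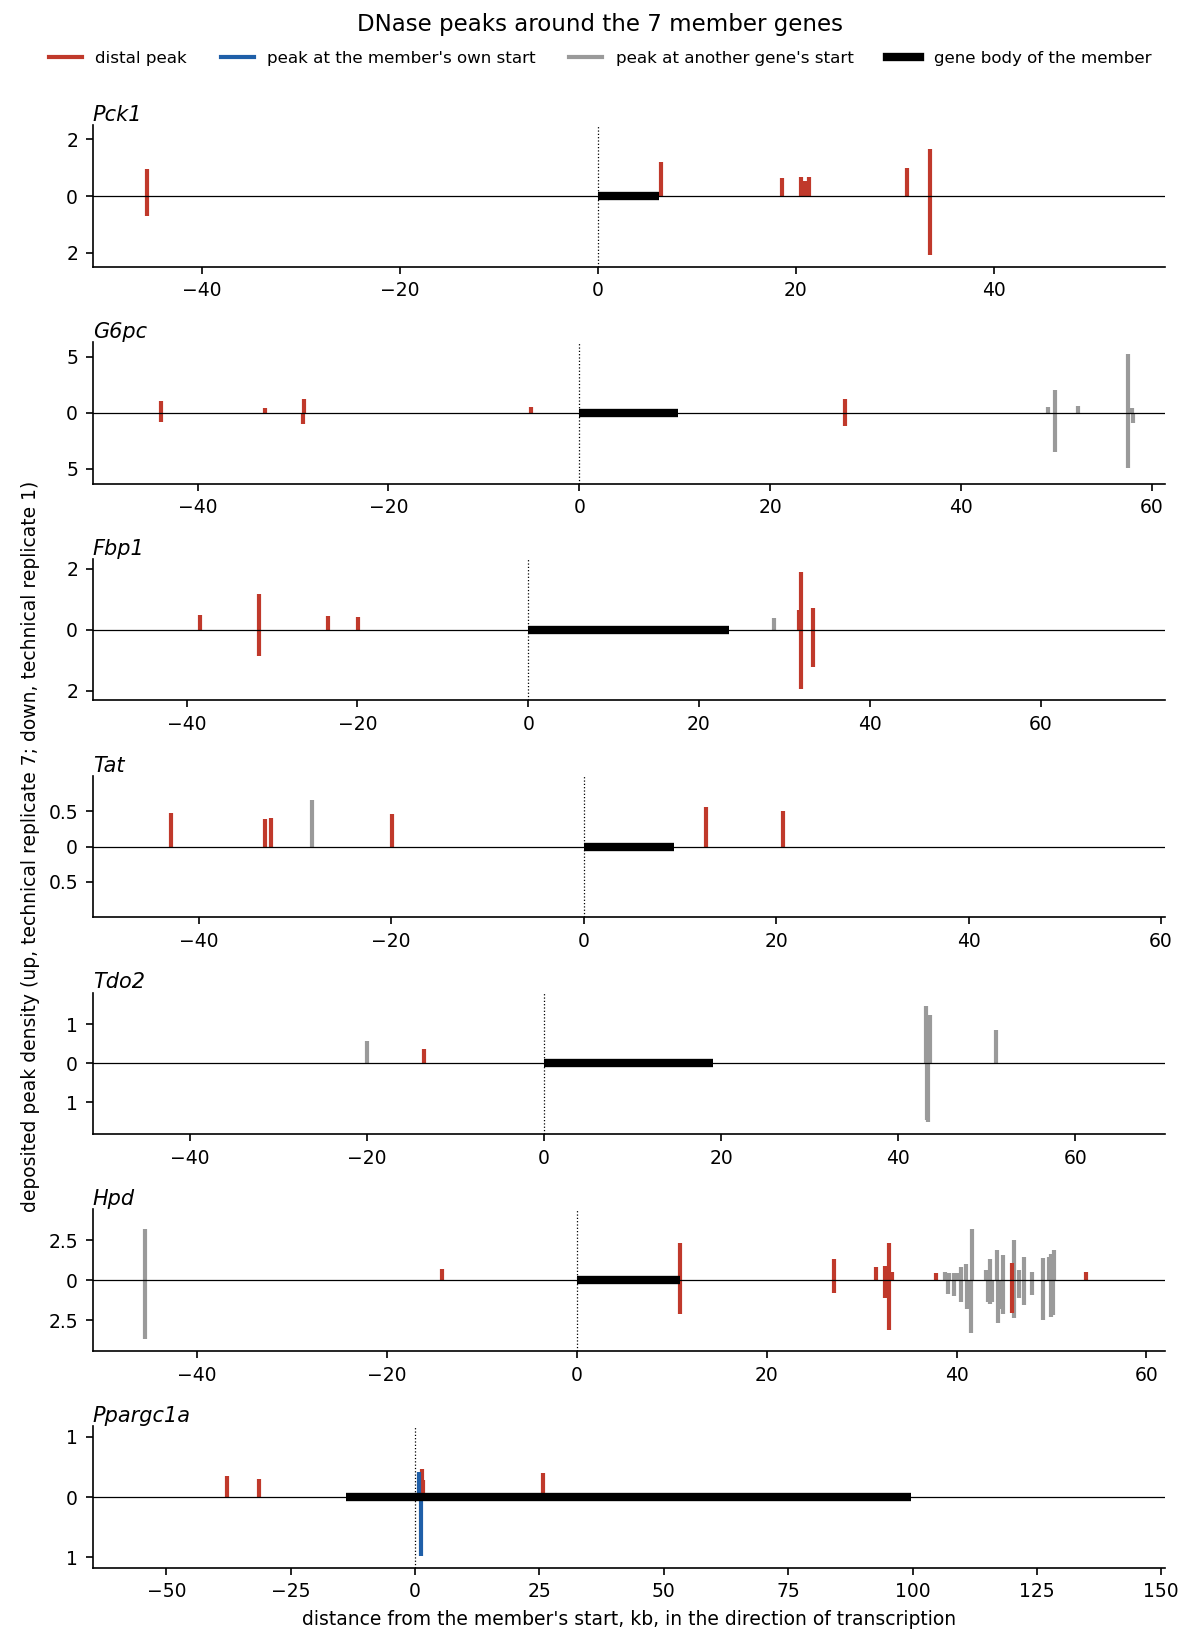
Deposited DNase peaks in the 7 loci, with the distance from the gene's start in kb on the x axis, in the direction of transcription, and the deposited peak density on the y axis, upward for technical replicate 7 and downward for technical replicate 1; black bars are gene bodies. Red distal peaks lie in every locus of technical replicate 7, while a blue peak at the gene's own start appears for Ppargc1a alone.

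The strongest distal peak of each locus in technical replicate 7 is printed here, because no peak of the enzyme loci lay at the enzymes' own starts. Peaks of these loci that were not distal lay at starts of other genes: 20 at Hpd, 5 at G6pc, 4 at Tdo2 and 1 each at Fbp1 and Tat. A deposited density, the highest density of cuts within a peak, ranks the distal peaks, and it is on a scale set by the authors for each library. Sequences are the plus strand of mm10, read from the GRCm38 assembly, 5′ to 3′, and capitals mark deposited footprints of technical replicate 7, short stretches within open chromatin that were cut less than their surroundings. Peaks longer than 300 bases are shown as the 300 bases around the summit.
Pck1, chr2:173186419-173186640: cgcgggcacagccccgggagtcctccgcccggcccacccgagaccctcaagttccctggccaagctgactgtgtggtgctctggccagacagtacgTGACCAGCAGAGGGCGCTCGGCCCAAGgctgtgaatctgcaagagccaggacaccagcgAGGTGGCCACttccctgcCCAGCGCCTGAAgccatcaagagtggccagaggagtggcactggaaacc
G6pc, chr11:101395229-101395459: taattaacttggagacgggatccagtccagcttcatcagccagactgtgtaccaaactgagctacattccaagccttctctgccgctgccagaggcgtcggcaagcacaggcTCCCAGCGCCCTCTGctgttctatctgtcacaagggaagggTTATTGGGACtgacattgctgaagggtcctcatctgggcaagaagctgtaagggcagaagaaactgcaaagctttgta
Fbp1, chr13:62856251-62856480: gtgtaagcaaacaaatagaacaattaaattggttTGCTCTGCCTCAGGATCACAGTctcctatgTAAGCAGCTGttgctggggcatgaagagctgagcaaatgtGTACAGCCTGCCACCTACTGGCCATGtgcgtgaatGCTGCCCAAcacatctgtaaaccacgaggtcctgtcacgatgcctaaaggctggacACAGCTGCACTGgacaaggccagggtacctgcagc
Tat, chr8:110003037-110003256: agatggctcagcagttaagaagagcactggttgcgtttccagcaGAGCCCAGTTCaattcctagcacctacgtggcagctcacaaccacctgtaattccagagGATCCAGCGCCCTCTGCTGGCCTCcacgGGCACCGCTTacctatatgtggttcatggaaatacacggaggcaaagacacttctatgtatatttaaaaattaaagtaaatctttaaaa
Tdo2, chr3:81989667-81989966: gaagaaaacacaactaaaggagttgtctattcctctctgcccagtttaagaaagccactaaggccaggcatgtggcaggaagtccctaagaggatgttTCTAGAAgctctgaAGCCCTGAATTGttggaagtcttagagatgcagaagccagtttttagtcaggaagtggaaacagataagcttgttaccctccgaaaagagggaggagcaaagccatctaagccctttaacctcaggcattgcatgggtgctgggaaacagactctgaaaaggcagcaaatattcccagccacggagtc
Hpd, chr5:123149727-123149942: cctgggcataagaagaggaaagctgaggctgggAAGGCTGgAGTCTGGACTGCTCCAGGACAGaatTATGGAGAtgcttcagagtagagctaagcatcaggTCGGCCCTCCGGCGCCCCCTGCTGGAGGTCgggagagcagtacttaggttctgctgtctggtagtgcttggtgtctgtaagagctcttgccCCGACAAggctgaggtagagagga
Ppargc1a, chr5:51552463-51552762: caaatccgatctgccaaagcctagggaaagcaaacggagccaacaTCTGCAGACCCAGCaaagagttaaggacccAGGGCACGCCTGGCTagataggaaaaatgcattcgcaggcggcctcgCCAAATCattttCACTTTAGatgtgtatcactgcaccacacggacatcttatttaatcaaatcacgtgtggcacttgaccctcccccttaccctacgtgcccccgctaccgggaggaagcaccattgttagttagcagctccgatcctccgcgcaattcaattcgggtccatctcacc

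Pck1 encodes the cytosolic phosphoenolpyruvate carboxykinase, which turns oxaloacetate into phosphoenolpyruvate, and lies on the plus strand of chromosome 2 (173153048 to 173159273). Its locus held 8 distal peaks in technical replicate 7 and 2 in technical replicate 1. Of the 8, 6 lay in a stretch where the deposited lists of technical replicate 1 disagree, described under the flagged results. The strongest, 33.5 kb past the start in intergenic sequence, had a density of 1.65 in technical replicate 7 and 2.08 in technical replicate 1. That is higher than 83.8% of the peaks in the list of technical replicate 7 and 74.3% in the list of technical replicate 1. The nearest coding start to it is that of Zbp1, not of Pck1. The other shared peak lay 45.5 kb upstream in an intron of Ctcfl, with densities of 0.961 and 0.707 in technical replicates 7 and 1. Nearest to the start was a peak 6.4 kb downstream, just past the 3′ end of Pck1 (chr2:173159378-173159618), with a density of 1.19 in technical replicate 7. It was in neither the shorter nor the longer list of technical replicate 1, but lists from another processing of that library held it. A hotspot of technical replicate 1, a broader region of raised cutting, covered it at a −log10 FDR of 1.31. Its sequence is shown because it is the distal site closest to the Pck1 start, with footprints of technical replicate 7 in capitals.
Pck1, past the 3′ end: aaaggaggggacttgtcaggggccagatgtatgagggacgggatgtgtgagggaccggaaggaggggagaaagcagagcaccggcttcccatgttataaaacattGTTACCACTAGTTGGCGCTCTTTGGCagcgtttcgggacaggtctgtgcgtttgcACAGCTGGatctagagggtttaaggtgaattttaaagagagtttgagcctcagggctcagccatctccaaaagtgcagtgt

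The start of Pck1 was not entirely without signal. The longer, less strict peak list of technical replicate 7 held a peak there (chr2:173152774-173153015) with a density of 0.373, higher than 29.4% of that list, and 4 footprints. It lies in a hotspot that reached a −log10 FDR of 2.83, below the 3 that every hotspot under the shorter list reached. No list or hotspot of technical replicate 1 covered the start. The sequence is shown because it is the one stretch directly upstream of an enzyme gene's start with a deposited peak, again with footprints in capitals.
Pck1, upstream of the start: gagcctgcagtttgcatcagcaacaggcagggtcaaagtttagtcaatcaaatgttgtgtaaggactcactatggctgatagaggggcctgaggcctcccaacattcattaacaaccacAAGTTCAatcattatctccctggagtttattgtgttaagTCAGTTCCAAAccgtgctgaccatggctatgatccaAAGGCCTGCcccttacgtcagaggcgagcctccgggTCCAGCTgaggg
Bases 207 to 214 of it, ttacgtca, match on the minus strand the letters TGACGTAA of a cAMP response element (CRE), the site that CREB binds; none of these bases lay in a footprint. The GATA letters AGATAA also match on the minus strand, from base 131 and 27 bp from the summit, nearer than the CRE match at 50 bp, and likewise outside the footprints. CRE letters were in 2.44% and GATA letters in 3.85% of 151-bp windows around the 34280 peaks of technical replicate 7 at starts. RefSeq promoter windows were found for all 7 genes. That of Pck1, 250 bases before to 50 after its start on GRCm38.p6, holds the same matches and the only peak of the longer list in any of the 7 windows. The window of Ppargc1a lies at the 5′ end of that gene. It does not reach the inner starts described below, where the longer list has peaks.

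G6pc encodes the catalytic subunit of glucose-6-phosphatase, which releases free glucose in the last step of the pathway, and lies on the plus strand of chromosome 11 (101367561 to 101377903). No peak and no hotspot of either library touched its start. The locus held 5 distal peaks in technical replicate 7 and 3 in technical replicate 1, and all 3 were shared. The strongest, intergenic and 27.8 kb past the start, had a density of 1.28 in technical replicate 7 and 1.15 in technical replicate 1. Another shared peak, 28.9 kb upstream in an untranslated exon of Aoc3, had 1.23 and 1.02 in technical replicates 7 and 1, and one 43.8 kb upstream had 1.01 and 0.808. The nearest coding starts to these 3 were those of Aarsd1, Aoc3 and Aoc2. Only the weaker site 5.1 kb upstream (density 0.533) had G6pc as its nearest coding start. It was listed for technical replicate 7 alone and is shown because it is the distal site closest to any of the enzyme starts; 300 bases around its summit follow.
G6pc, chr11:101362334-101362633: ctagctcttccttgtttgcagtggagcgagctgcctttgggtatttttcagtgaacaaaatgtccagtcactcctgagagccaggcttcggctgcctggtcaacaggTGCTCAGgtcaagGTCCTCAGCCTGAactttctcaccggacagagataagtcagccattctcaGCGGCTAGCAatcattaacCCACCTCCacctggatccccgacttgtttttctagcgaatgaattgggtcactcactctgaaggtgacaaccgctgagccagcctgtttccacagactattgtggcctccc
It carried 4 footprints of technical replicate 7. The GATA letters AGATAA begin at base 151 of this sequence, 3 bp from the summit, and a match to the glucocorticoid receptor consensus begins at base 53, 92 bp from the summit and so outside the window searched for motifs further on; neither has a base in a footprint.

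Fbp1 encodes fructose-1,6-bisphosphatase 1, which removes a phosphate from fructose-1,6-bisphosphate, and lies on the minus strand of chromosome 13 (62864753 to 62888282) beside Fbp2, the muscle form. Its 7 distal peaks in technical replicate 7 fell into a group 31.7 to 33.4 kb past the start, in an intron of Fbp2, and a group 19.9 to 38.4 kb upstream in intergenic sequence. The strongest, 31.9 kb past the start, had a density of 1.89 in technical replicate 7 and 1.93 in technical replicate 1, and its neighbour 33.4 kb past the start had 0.721 and 1.23. At the stronger site a wide peak of technical replicate 1 overlaps 2 peaks of technical replicate 7, so that 4 shared peaks are counted in technical replicate 7 against 3 listed in technical replicate 1. Upstream, the site at 31.5 kb was shared, with 1.17 and 0.869 in technical replicates 7 and 1, and its nearest coding start is that of Fbp1. The site closest to the start, 19.9 kb upstream, had a density of 0.405 in technical replicate 7. It was in neither the shorter nor the longer list of technical replicate 1, but lists from another processing of that library held it. A hotspot of technical replicate 1 covered it at a −log10 FDR of 1.42. At the start itself technical replicate 7 had a hotspot of −log10 FDR 2.14 and technical replicate 1 had none.

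**Figure D2:**
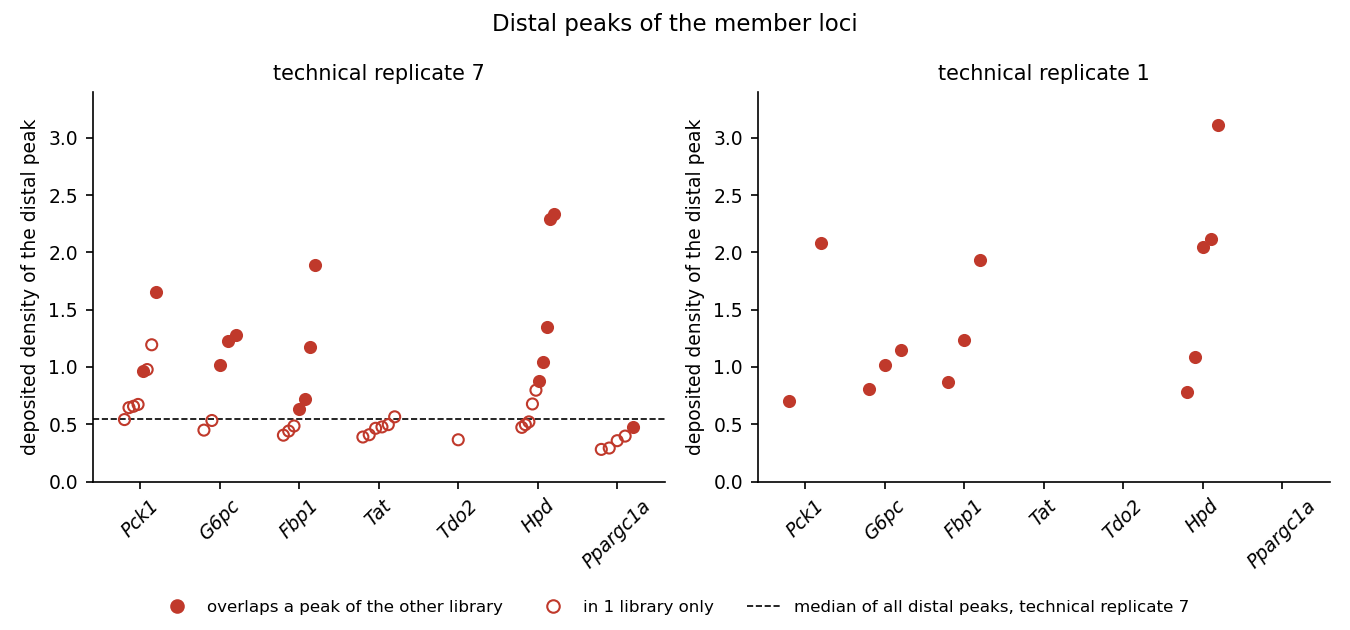
Density of each distal peak by locus, as deposited, in technical replicate 7 (left) and technical replicate 1 (right); filled points overlap a peak of the other library, open points do not, and the dashed line is the median of all 51756 distal peaks of technical replicate 7, 0.545. The filled points of Pck1, G6pc, Fbp1 and Hpd reach highest values of 1.28 to 2.34 in technical replicate 7, whereas every point of Tat, Tdo2 and Ppargc1a stays at or below 0.565.

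Tat encodes tyrosine aminotransferase, the first enzyme of tyrosine breakdown, and lies on the plus strand of chromosome 8 (109990437 to 109999803). Neither library had a peak or a hotspot at its start. Technical replicate 7 had 6 distal peaks in the locus, with densities of 0.389 to 0.565, and technical replicate 1 had none. The strongest and nearest lay 12.7 kb past the start, beyond the 3′ end of the gene. It appeared in the longer list of technical replicate 1 with a density of 0.485, higher than 1.85% of that list, and 69.1% of its bases are soft-masked as repeats in the reference. The other peak with Tat as nearest coding start was 20.7 kb past it (0.497 in technical replicate 7). The 4 upstream peaks, 19.9 to 42.9 kb away, were nearest to Marveld3, and no distal peak lay in the gene body or between it and the first of these.

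Tdo2 encodes tryptophan 2,3-dioxygenase, the liver enzyme that opens the ring of tryptophan, and lies on the minus strand of chromosome 3 (81957090 to 81976202). Its locus had the fewest distal peaks of the 7 in technical replicate 7. A single one, 13.6 kb upstream in an intron of Asic5, had a density of 0.365 in technical replicate 7, higher than 11.7% of that list, and no list, hotspot or cut-rate call of technical replicate 1 covered it. It carried 2 footprints of technical replicate 7, and AGATAA letters 27 bp from its summit lay in neither. At the start a hotspot of technical replicate 7 reached a −log10 FDR of 1.75.

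Hpd encodes 4-hydroxyphenylpyruvate dioxygenase, the enzyme after Tat in tyrosine breakdown, and lies on the minus strand of chromosome 5 (123171807 to 123182727). It had the most distal peaks of the 7 loci, 10 in technical replicate 7 and 5 in technical replicate 1, all 5 of them shared. The strongest, 32.9 kb past the start in an intron of Setd1b, a histone methyltransferase gene, had a density of 2.34 in technical replicate 7 and 3.11 in technical replicate 1, higher than 89.1% and 87.2% of those lists. A peak 10.9 kb past the start spans the 3′ end of Hpd (chr5:123171670-123171940), with a density of 2.30 in technical replicate 7 and 2.12 in technical replicate 1; Hpd is its nearest coding start. The shared peaks at 27.1 and 32.5 kb had 1.35 and 0.881 in technical replicate 7, against 0.778 and 1.09 in technical replicate 1. The fifth, 45.8 kb past the start, had 1.04 in technical replicate 7 and 2.05 in technical replicate 1. The site 14.2 kb upstream had 0.677 in technical replicate 7 and the only C/EBP match among the distal peaks of that library. It was in neither the shorter nor the longer list of technical replicate 1, but lists from another processing of that library held it. This locus is crowded: it also held 20 peaks of technical replicate 7 and 19 of technical replicate 1 at the starts of other genes, among them Setd1b, Rhof and Psmd9. At the Hpd start itself technical replicate 7 had a hotspot of −log10 FDR 1.46 and technical replicate 1 none.

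Ppargc1a, the coactivator gene, had an open start by the 1 kb window, and that start lies inside the gene. The gene is on the minus strand of chromosome 5 (51454250 to 51567726). The basic annotation used for all genes places its starts at 51553891 and 51553922, and within 1 kb of them technical replicate 7 had a peak with a density of 0.413 and technical replicate 1 a peak with 0.980, higher than 21.4% and 31.6% of those lists. The summit in technical replicate 7 was 847 bp from the nearer start, and the call was lost in both libraries with a window of 500 bp. At its 5′ end, where the comprehensive annotation starts further transcripts (51567704 and 51567726), neither library had a peak or a hotspot. Technical replicate 7 listed 5 distal peaks, with densities of 0.280 to 0.473, and technical replicate 1 listed none. The strongest, 1.3 kb into the gene from the inner starts, is a neighbour of the start peak in the same hotspot and overlaps the peak of technical replicate 1 counted at the start. The longer list of technical replicate 7 adds peaks directly at the inner starts, one of which (chr5:51553840-51554007, density 0.284) holds the CRE letters TGACGTCA on the plus strand, 4 of its 8 bases in a footprint.

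Hotspots, which reach lower significance than peaks, touched more of these starts in technical replicate 7. They covered a start of 5 of the 7 genes, Pck1, Fbp1, Tdo2, Hpd and Ppargc1a, where 70.2% of all genes had one. In technical replicate 1 they covered 1 of 7, Ppargc1a, at a −log10 FDR of 5.94 against 8.18 in technical replicate 7, where 65.0% of all genes had one. The highest −log10 FDR among the enzyme starts was the 2.83 of Pck1.

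The 5′ ends of these genes are poor in CpG, which in mammals goes with tissue-restricted promoters. Over 1 kb around the 5′ end, the observed over expected CpG ratio was 0.300 for Pck1, 0.217 for G6pc, 0.401 for Fbp1, 0.230 for Tat, 0.0749 for Tdo2, 0.273 for Hpd and 0.228 for Ppargc1a, against a median of 0.553 for all protein-coding genes. Of the 7713 genes within this range, 27.8% had an open start in technical replicate 7 and 19.5% in technical replicate 1. Closed starts were thus the usual state of genes of such CpG content in this tissue, and the 1 of 7 (14.3%) is near those shares. That 1 is Ppargc1a, whose open call is at its inner starts. Its ratio was taken at the 5′ end, where it had no peak, and none was computed for the inner starts.

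As a group, the 42 distal peaks of technical replicate 7 in the 7 loci were much like distal peaks elsewhere. Their median density was 0.601, against 0.545 for all 51756 distal peaks, and 15 of the 42 (35.7%) overlapped a peak of technical replicate 1, against 29.4% of all. Shared ones were stronger, with a median of 1.17 in technical replicate 7, against 0.485 for the 27 listed in technical replicate 7 alone, whose densities ran from 0.280 to 1.19. Of these 27, 18 had some trace in the other files of technical replicate 1: 6 in its longer list, 13 in a hotspot and 17 at positions with a raised cut rate. Without the Pck1 locus, but with Hpd still counted, it was 12 of 21. For the G6pc site 5.1 kb upstream the trace was 1 position, at an FDR of 0.0493. The share with a trace was not computed over all distal peaks listed in technical replicate 7 alone, so these counts have no background beside them. Positions with a raised cut rate were dense in the loci of Pck1 (22776) and Hpd (23062), against 665 to 3611 in the others. A footprint of technical replicate 7 lay in 36 of the 42 (85.7%), against 93.1% of all distal peaks, and one of the stricter list in 26 (61.9%), against 62.5%. Median GC content was 51.8%, against 50.2% for all distal peaks.

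Many of these sites lay closer to other genes. Of the 42 peaks, 21 lay in introns, 1 in an exon and 20 in intergenic sequence, with 3 inside the gene itself, all 3 in Ppargc1a. The nearest coding start was that of the locus's own gene for 20 peaks, in 6 of the 7 genes, and that of another gene for 22. Of the 15 shared peaks, 3 belonged to the first kind: those of Fbp1 at 31.5 kb upstream, of Hpd at its 3′ end and of Ppargc1a.

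Distal peaks per locus varied between the genes and the libraries. The median over the 7 was 6 in technical replicate 7, or 5.49 per 100 kb, against 4, or 2.89 per 100 kb, for all protein-coding genes and 1, or 0.968 per 100 kb, for genes with a closed start. In technical replicate 1 the median was 2 for the 7, against 1 for all genes and 0 for those with a closed start. Ppargc1a (2.34 per 100 kb) and Tdo2 (0.840) were below the value of all genes in technical replicate 7, and Tat, Tdo2 and Ppargc1a had 0 in technical replicate 1. Hpd with 10 had more than 86.0% of all genes in technical replicate 7, and Tdo2 with 1 more than 16.3%. Distances to the nearest distal peak in technical replicate 7 were 5077 bp for G6pc, 6445 bp for Pck1, 10932 bp for Hpd, 12713 bp for Tat, 13615 bp for Tdo2 and 19945 bp for Fbp1. All 6 are below 32652 bp, the median of genes with a closed start in that library, and those of G6pc and Pck1 are also below the lower quartile of 9503.5 bp. In technical replicate 1 the nearest distal peak of Hpd was 10948 bp away, of G6pc 27789 bp, of Fbp1 31527 bp and of Pck1 33474 bp, all under the median of 105210 bp, while Tat at 140257 bp and Tdo2 at 749548 bp were above it.

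**Figure D3:**
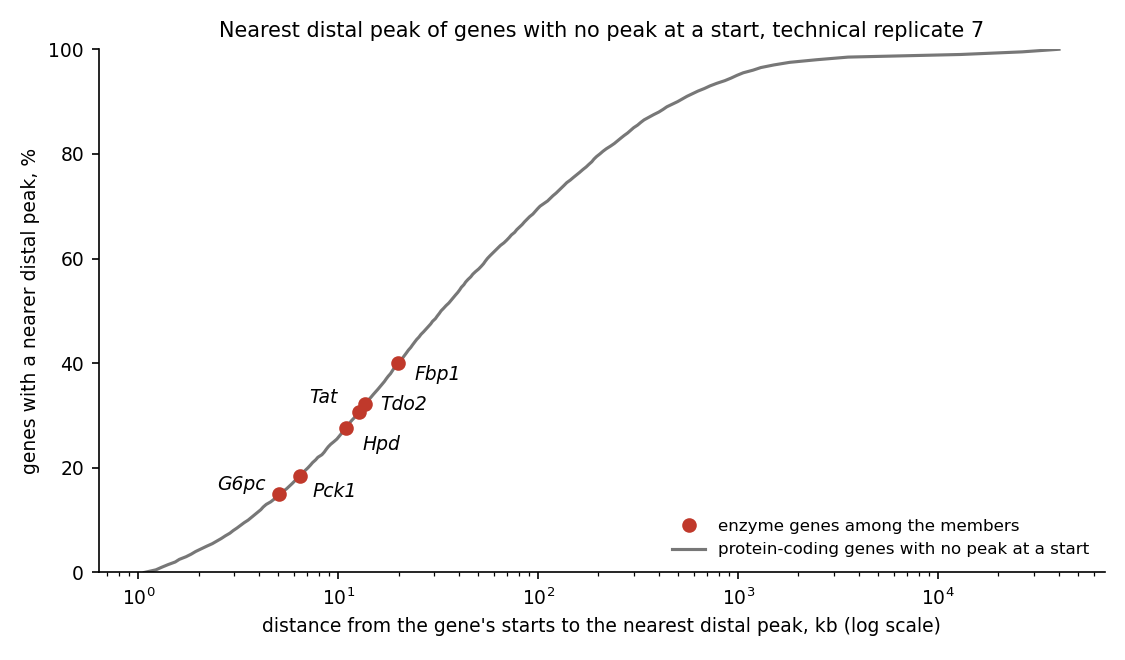
Distance from a gene's starts to its nearest distal peak in technical replicate 7 on a log x axis in kb, with the percentage of genes that have a nearer one on the y axis; the grey curve is the 7603 protein-coding genes with no peak at a start and red points are the 6 enzyme genes. The points run from 14.9% for G6pc to 40.0% for Fbp1.

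Binding letters of liver factors were rare in these sites. In 151 bp around the summits of the 42 distal peaks, both strands, there was no match to the FOXA letters TGTTTAC or TATTTAC (3.73% of all distal windows), to the DR1 site of HNF4A (0.572%), to the glucocorticoid receptor site (0.286%) or to the CRE letters TGACGTCA, TGACGTAA and TGACGCAA (0.680%). C/EBP letters such as TTGCGCAA and TTGCACAA were in 1 (2.38%), at Hpd, against 1.32% of all. The rates over all distal windows are so low that 42 windows would hold few or none. The GATA letters AGATAA were in 2 (4.76%), at G6pc and Tdo2, against 14.2% of all distal windows. Their composite with the E-box of TAL1, a subset of those matches, was in none, against 2.53%. GGGGNGGGG of SP and KLF factors was in 3 (7.14%), against 7.53%.

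The site of CTCF, the zinc finger protein known for insulators and chromatin loops, was the most frequent of the motifs searched. Its consensus was in 6 of 42 windows (14.3%), against 10.4% of all distal windows, at Pck1, Fbp1, Tat and Hpd. A looser form, chosen after the printed sequences were seen, requires CC, 3 free bases, AG, 2 free bases and GGC. It includes the first form and was in 12 of the 42 (28.6%), against 24.0% of all distal windows, close to that background. Among them are the strongest distal peaks of Pck1, Fbp1, Tat and Hpd and the Pck1 site past its 3′ end, where the 12 bases lay wholly in a footprint of technical replicate 7, readable in the capitals of the sequences above. In 11 of the 12 peaks the match was covered in full. Neither footprint cover of such matches nor their presence in the strongest peak of a locus was counted outside the 7 loci. Both therefore lack a background and are not shown to be particular to these genes. Among shared peaks the looser form was in 5 of 15 (33.3%), against 32.9% of all 15234 shared distal windows, and in those of technical replicate 7 alone in 7 of 27 (25.9%), against 20.3% of 36522. A match of letters shows neither binding nor a role for these genes.

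Of 24 other gluconeogenic enzymes and transporters, 19 (79.2%) had an open start in technical replicate 7, 17 (70.8%) in technical replicate 1 and 17 in both, against the 65.3%, 59.9% and 59.3% of all genes given above. Among those open in both were Pcx, the pyruvate carboxylase that feeds the pathway, with start densities of 5.72 and 4.14 in technical replicates 7 and 1, Slc37a4, the transporter that supplies glucose-6-phosphatase, with 4.55 and 3.96, and the broadly expressed relatives Pck2, a mitochondrial carboxykinase, with 3.47 and 2.35, and G6pc3, with 2.64 and 1.66. The start of Fbp2 was open in technical replicate 7 alone, at 0.369. Among those closed in both were G6pc2, Slc2a2, the glucose transporter gene of the liver, Gpd1 and Pfkfb1, named after their values were seen.

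In tyrosine and phenylalanine breakdown 7 of 8 other genes had an open start in technical replicate 7 and 6 in technical replicate 1, the same 6 in both. They include Fah, the last enzyme of the route, with 0.821 and 1.98 in technical replicates 7 and 1, and Gstz1 with 3.48 and 3.29. Hgd, the enzyme after Hpd, had 0.308 in technical replicate 7 alone. In tryptophan breakdown 6 of 10 were open in technical replicate 7 and 5 in technical replicate 1, or 60% and 50%, below the 65.3% and 59.9% of all genes, with Afmid (2.89 and 2.04) and Kyat1 (4.33 and 2.52) the strongest. Ido2, Kmo, Haao and Acmsd were closed in both. Of 30 further amino acid enzymes 23 (76.7%) were open in technical replicate 7, 19 (63.3%) in technical replicate 1 and 19 in both. Oat, ornithine aminotransferase, had 4.88 and 3.02 in technical replicates 7 and 1. Sds, Hal and Agxt, which act on serine, histidine and glyoxylate, were among the 7 closed in both, again named after their values were seen.

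**Figure D4:**
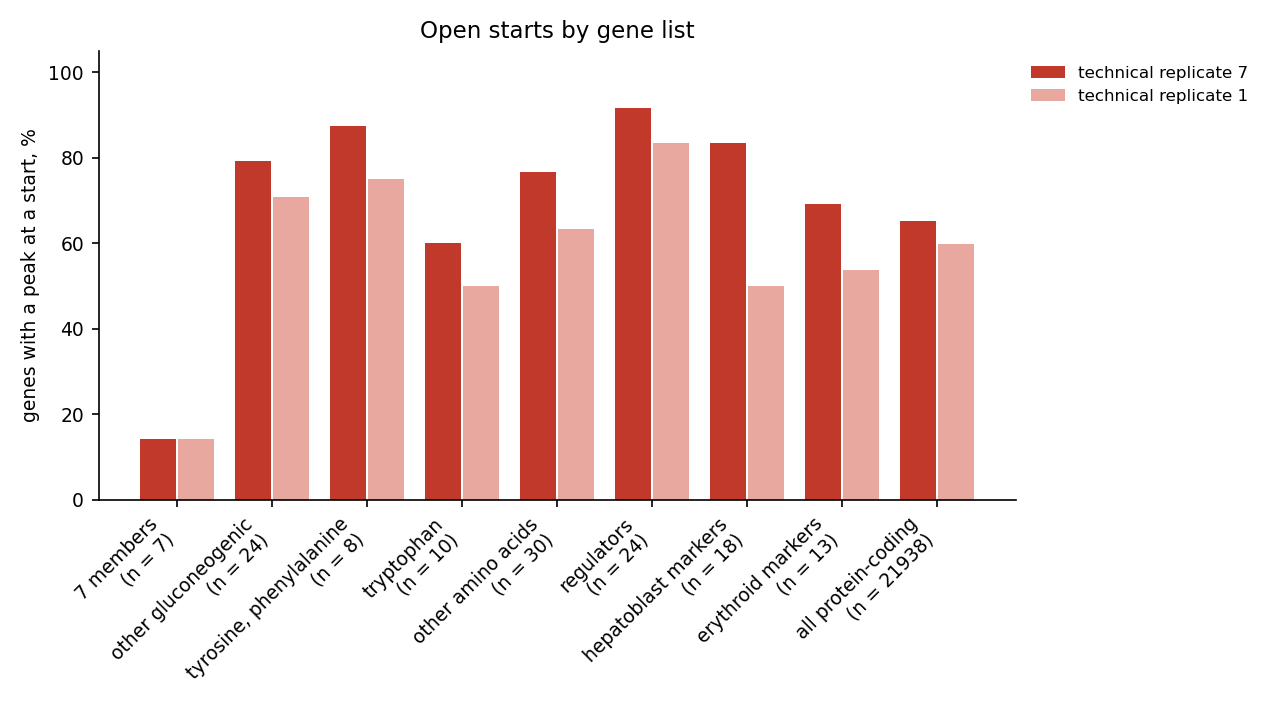
Percentage of genes with a peak at a start, bars from 0, for the 7 members, the other genes of their pathways, their regulators, hepatoblast and erythroid markers and all protein-coding genes, in technical replicate 7 (dark) and technical replicate 1 (light). The members stand at 14.3% in either library and all protein-coding genes at 65.3% in technical replicate 7 and 59.9% in technical replicate 1. The lists are not matched for CpG content. Of the 7713 genes in the CpG range of the members, 27.8% had an open start in technical replicate 7 and 19.5% in technical replicate 1.

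Regulators of these enzymes had open starts in 22 of 24 cases (91.7%) in technical replicate 7, 20 (83.3%) in technical replicate 1 and 19 in both. Among those open in both were Cebpa (2.98 and 2.82 in technical replicates 7 and 1), Nr3c1, the glucocorticoid receptor gene (3.17 and 3.05), Creb1 (4.84 and 5.34), Foxo1 (2.67 and 3.26), Insr, the insulin receptor gene (2.98 and 3.93), and Ppargc1b, the relative of Ppargc1a (2.27 and 2.34). Hnf4a (0.717) and Nr1h4 (0.324) had start peaks in technical replicate 7 alone, and Gcgr, the glucagon receptor gene, in technical replicate 1 alone (0.828). Nr0b2, a repressor that answers to bile acids, was closed in both.

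Starts of cell type markers were counted in the same way. Hepatoblast markers had an open start in 15 of 18 cases (83.3%) in technical replicate 7, above the 65.3% of all genes, and in 9 (50%) in technical replicate 1, below its 59.9%. The 9 open in both libraries included Foxa3 (5.36 and 3.46 in technical replicates 7 and 1), Prox1 (1.54 and 2.02) and Onecut1 (1.16 and 1.90). Alb, the albumin gene, was closed in both libraries, and Afp (0.569) and Ttr (0.517) were open in technical replicate 7 alone. Weak or missing start peaks thus also occurred among genes known to be active at this stage. Erythroid markers were open in 9 of 13 and 7 of 13, endothelial in 3 of 6 and 2 of 6, macrophage in 2 of 4 and 1 of 4, and mesenchymal and stellate markers in 6 of 6 and 6 of 6, in technical replicates 7 and 1. Markers of kidney and gut, other sites of gluconeogenesis, were open in 1 of 4 in either library. Neuronal markers were open in 3 of 4 and 2 of 4, or 75% and 50%, against 69.2% and 53.8% for erythroid markers. These shares thus do not mark out the cell types of this tissue. The part of each cell type in the distal peaks of the 7 loci was not tested.

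The libraries differed in how many peaks they list, which bears on every count. Technical replicate 7 listed 86036 peaks and technical replicate 1 42422, of which 89.9% overlapped a peak of technical replicate 7. Densities fell on whole multiples of 1 step, within a tolerance of 0.05 steps for 100% of values in each library, and the step of technical replicate 1 was 2.52 times that of technical replicate 7. The depth itself is unknown from these files, and since an instrument is labelled for technical replicate 7 only, library and sequencing batch cannot be told apart. Why sites of technical replicate 7 were missing from technical replicate 1 was not tested.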

How the data were processed

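DNase-seq peaks, hotspots and footprints of 2 libraries, technical replicates 7 and 1 of 1 biosample, were used as deposited, on mm10 per the labels; the sources used here name no aligner, peak caller or footprint caller. In the deposited peak lists the signal is a cut density. The deposited hotspots carry a −log10 FDR, one further deposited list of technical replicate 1 carries a score, and the deposited cut-rate positions carry an FDR (a p-value adjusted by the authors) below 0.05. The footprints of technical replicate 1 came from another processing, per the deposited notes, with a constant value of 0.01.

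The shorter of 2 peak lists per library was used; it is wholly contained in the longer, and hotspots under it reached a −log10 FDR of 3, against 2 under the longer. Starts came from the basic GENCODE M21 annotation (GRCm38). Peaks overlapping by at least 1 bp counted as shared. Counts were made with Python 3.11.15, pandas 2.3.3, numpy 2.4.6 and bedtools 2.31.1, and tested on simulated peaks. Motifs were searched in 151 bp around each summit. No p-values were computed, because 1 biosample gives no replicate error, and the differences between the 2 libraries may be technical; their depth is unknown. Alternatives changed the peak list, start window, flank, overlap, annotation and motif letters.

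The 7 genes and all lists were chosen with earlier results of these data known. Named were, per gene, every start peak, the strongest, the nearest and all shared distal peaks, and, per further list, some of the genes open in both libraries; that selection and other names were made after their values were seen. A few genes of the further lists are not reported here by name.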

Additional observations from a re-analysis of the deposited data

Results flagged for a closer look

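Beside Pck1 the deposited lists of technical replicate 1 disagreed with each other. From 12.3 kb past the 3′ end of the gene, a stretch of 46.7 kb on chromosome 2 (173171595 to 173218282) held 49 hotspots in a list from another processing of technical replicate 1, which the counts above do not use, and they covered 61.3% of it. In the same stretch technical replicate 7 had 5 hotspots covering 5.96% and the list of technical replicate 1 used above had 4 covering 2.96%. Peaks numbered 59, 71 and 76 in the 3 lists of that other processing, against 6 in technical replicate 7 and 1 in technical replicate 1. These 6 are among the 8 distal peaks given above for the Pck1 locus in technical replicate 7. They include the strongest, which both libraries share. The distal peaks of technical replicate 1 outside the Pck1 locus numbered 11 in the list used, against 39, 50 and 44 in those lists. The cause was not tested.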

How the results depend on the processing

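Of 86 values recomputed under other settings 55 kept their size, within 1.5 times of the value given, and 31 moved; the number of genes with a distal peak and a closed start was among those that kept it in every setting, at 4 to 7 in technical replicate 7, 3 to 5 in technical replicate 1 and 3 to 6 in both. Open starts, 1 of 7 throughout, became 2 in technical replicate 7 with the longer lists (Pck1 added), 0 in each library and in both with the stronger 50% of peaks by density, with a window of 500 bp or with the gene's 5′ end alone, 0 in both with an overlap of 50%, and 2 in all 3 counts with the comprehensive annotation, an alternative chosen after seeing the data, in which a transcript starting near the 3′ end of Hpd turns its distal peak into a start peak. Distal peaks numbered 42 in technical replicate 7, 13 in technical replicate 1 and 15 in both; these became 21, 5 and 6 in the stronger 50% of peaks, 22, 5 and 7 with a flank of 20 kb, and 75, 22 and 25 with 100 kb. The longer list gave 21 in technical replicate 1, a window of 2500 bp gave 9 in both, and leaving out 1 library left 13 to 42. The lists of another processing of technical replicate 1 gave 86, 109 and 107 in place of 13, with Pck1 and Hpd contributing most, and 92 hotspots in place of 44. The stricter footprint list of technical replicate 7 had 83 in the loci in place of 230. No paired analysis was possible because the libraries form 1 group. At Tdo2 every list of technical replicate 1 held 0 distal peaks, including 2 lists longer than that of technical replicate 7; at Tat the lists other than the one used held 1 to 4.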
